A study of Mus musculus with 12 samples.

Results

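The genes of the cytosolic ribosome were followed in gonadal white adipose tissue (GWAT) of male mice. Ribosomal proteins and ribosomal RNA form a small subunit, which reads the mRNA, and a large subunit, which joins the amino acids. Most of these proteins are present once in each ribosome, so their genes are expressed together, and their mRNAs carry a run of pyrimidines at the 5′ end (the TOP motif) through which mTOR signaling controls their translation. Some members have a close relative, or paralog, that is used mainly in testis or muscle. Members were chosen by symbol, as genes named Rpl or Rps with a number, or Rplp0, Rplp1, Rplp2 or Rpsa, and by a mean of at least 10 CPM (read counts scaled to a common library total) over the 12 libraries. By symbol 83 protein-coding genes matched, and 81 of the 21646 genes in the protein-coding table passed the minimum, 49 of the large and 32 of the small subunit. Just below the minimum were Rpl3l at 2.83 and Rpl10l at 8.83 mean CPM. Just above it were Rpl39l at 10.3, Rps27l at 77.4 and Rpl7l1 at 79.7 mean CPM. These values only set membership.

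The study compared mice lacking HOIP (Rnf31), the catalytic part of the linear ubiquitin chain assembly complex, in mature adipocytes with littermate controls. All mice carried the floxed Hoip allele (Hoip fl/fl), and HoipA-KO mice also carried AdipoQ.Cre, which is driven by the adiponectin promoter and acts in mature adipocytes, whereas Cre-negative littermates are called WT. Mice were fed a control diet (CD, 14% fat) or a high-fat diet (HFD, 60% fat) from 6 weeks of age for 16 weeks, which gave 4 groups of 3 libraries, each library from the pooled RNA of 3 mice. Polyadenylated RNA was sequenced, and libraries held 30513500 to 60540260 estimated counts. Because the tissue is whole, fewer cells of a type and less RNA per cell cannot be told apart.

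WT CD replicate 3 stood apart and was left out of the study's deposited comparisons, so comparisons below used 11 libraries (WT CD, n = 2) and values with all 12 are given beside them. In that library 5151 genes were over 8 times higher than in every other library and held 19.9% of its counts, and 10 testis germ cell markers summed to 11982 CPM, against at most 485 in any other. WT CD replicate 2 had 454 such genes with 6.83% of its counts, and its 11 measured epididymal epithelium markers summed to 14587 CPM, against 1.24 in WT CD replicate 1 and at most 1295 elsewhere (HoipA-KO HFD replicate 1). Both kept WT CD libraries thus differed in composition. All 10 adipocyte markers were detected in every group, with sums of 5545 to 48059 CPM. Rnf31 itself ranged from 17.8 to 22.5 CPM over the 11 libraries and did not pass the test between genotypes (log2 fold change -0.08 on CD and 0.13 on HFD); a count over the whole gene in mixed tissue does not check a deletion restricted to adipocytes.

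Ribosomal protein genes took between 1.82% and 4.96% of all counts. In WT CD the share was 2.48% and 4.11% in replicates 1 and 2 and 1.82% in replicate 3, in WT HFD 2.48%, 2.64% and 2.77%, in HoipA-KO CD 3.83%, 3.30% and 4.51%, and in HoipA-KO HFD 4.14%, 3.81% and 4.96%. The 3 HoipA-KO HFD libraries were all above the 3 WT HFD libraries, whereas WT CD spanned most of the range of the other groups. Group means were 3.30% ± 1.15 (SD, n = 2) in WT CD, 2.63% ± 0.148 (n = 3) in WT HFD, 3.88% ± 0.610 (n = 3) in HoipA-KO CD and 4.30% ± 0.590 (n = 3) in HoipA-KO HFD. Counting error is far smaller than this spread. In WT CD replicate 1 the 95% Wilson interval was 2.478% to 2.486%, which covers counting error only. The 322 annotated pseudogenes named after these genes took counts equal to 0.407% to 0.475% of the member counts, as far as the counting divided reads between them.

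**Figure D1:**
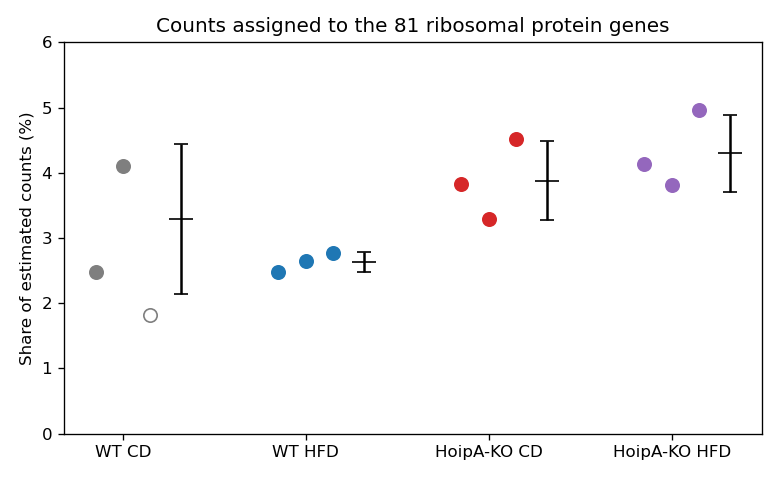
Share of estimated counts (%) assigned to the 81 ribosomal protein genes in each of the 12 libraries, by group. Filled points are libraries used in the comparisons, the open point is WT CD replicate 3, and bars give the mean and SD without it; the WT HFD libraries (2.48% to 2.77%) lie below the HoipA-KO HFD libraries (3.81% to 4.96%).

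Levels of members were compared per transcript length. Lengths came from GENCODE M21 (GRCm38), as the shortest principal transcript of each gene (271 to 3706 bases, median 681), and the levels depend on that choice. The median level per length over 11 libraries was 544 CPM per kilobase, with quartiles of 437 and 749. Rps12 (1307 CPM per kilobase) and the stalk protein Rplp1 (1283) were highest, while the lowest were Rpl39l (0.890), Rpl7l1 (60.1), Rps20 (107, with the longest transcript of all members), Rpl22l1 (146) and Rps27l (153). The 5 members with most counts were Rpl10, Rplp0, Rpl4, Rpsa and Rps3a1. Members lie on 19 chromosomes.

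RefSeq promoters (GRCm38.p6, 250 bases before to 50 after the annotated start) were found for 61 of the 81 members. The sequences counted below were not part of the membership rule. That rule did ask for a minimum expression, whereas the set of all promoters was not limited to expressed genes. A C that lay within 10 bases of the annotated start and was followed by at least 5 further C or T was present in 31 of 61 members (50.8%) and in 19.2% of all 27018 promoters. The letters CCGGAAG on either strand, which ETS family factors bind, were present in 25 of 61 members (41.0%) and in 9.12% of all promoters, and GGGCGG on either strand in 37 of 61 (60.7%) and 35.9%. TATAAA was present in 6 of 61 (9.84%) and 14.2%. The median GC content was also higher in member promoters (58.0%, against 52.7% in all promoters), and its part in these shares was not tested. The 30 bases around the annotated start, 15 before and 15 after, are shown for the matched members among those that were higher in HoipA-KO on both diets, for the abundant Rplp0 and for Rps26, which stood apart in 1 library. Capitals mark the longest run of C or T with at least 1 base within 10 bases of the start. Rpl12 (chr2:32961697-32961726, plus strand), Rpl10a (chr17:28328456-28328485, plus), Rpl35 (chr2:39005117-39005146, minus), Rplp0 (chr5:115559452-115559481, plus) and Rps26 (chr10:128626492-128626521, minus) read 5′ to 3′:
Rpl12: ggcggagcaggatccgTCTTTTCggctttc
Rpl10a: gtggcgCCCCCCCagcggccgcaaactgca
Rpl35: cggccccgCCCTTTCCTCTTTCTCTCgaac
Rplp0: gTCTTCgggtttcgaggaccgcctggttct
Rps26: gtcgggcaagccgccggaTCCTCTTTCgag
The run was 7 bases in Rpl12 and Rpl10a, 18 in Rpl35, 9 in Rps26 and 5 in Rplp0. Counted from the annotated start, it began at position -14 in Rplp0, -9 in Rpl10a, -7 in Rpl35, 2 in Rpl12 and 4 in Rps26. In Rplp0 and Rpl10a it ended before that start, so it lay outside the annotated mRNA. It began with a C only in Rpl10a and Rpl35. These are matches of letters at annotated starts, and no binding or start-site data are part of the series.

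On HFD, ribosomal protein genes were higher in HoipA-KO than in WT as a set of small and similar estimates. All 81 members had a higher estimate, with a median log2 fold change of 0.64 against 0.058 over all genes tested, and estimates ran from 0.11 (Rps27l) to 0.83 (Rpl12). In the edgeR quasi-likelihood fit, with p adjusted (Benjamini-Hochberg) over 18427 genes, 34 members passed at 0.05 and all 34 rose, where 4.2% of all genes tested rose and 7.62% fell. Of these, 18 were in the large subunit (of 49) and 16 in the small (of 32), and the subunit medians were 0.59 and 0.66. The count depended on the libraries in the fit, which shares 1 estimate of spread over all groups, and ran from 0 (without WT HFD replicate 1, for example) to 72 (without WT CD replicate 2) when leaving out each in turn. With all 12 libraries no member passed (39 were higher at unadjusted p under 0.05, where 9.29% of all genes were, and the smallest adjusted p was 0.0885), against 0.531% of genes higher and 2.25% lower in all, whereas the median hardly moved (0.63). DESeq2's Wald test on the 11 libraries called 76 members higher and 12.9% of all genes. In 79 of 81 members every HoipA-KO HFD library was above every WT HFD library, against 20.7% of all genes tested; the exceptions were Rpl39l and Rps27l.

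Rpl12 and Rps27a rose most on HFD. Rpl12, a large subunit protein at the base of the stalk, was at 312, 361 and 367 CPM in WT HFD and at 535, 628 and 684 in HoipA-KO HFD. The groups did not overlap (log2 fold change 0.83 ± 0.19 SE, edgeR adjusted p = 0.0264). Rps27a, which is made as a fusion with ubiquitin, was at 347, 391 and 410.1 CPM in WT HFD and at 581, 694 and 741 in HoipA-KO HFD (0.81 ± 0.19, edgeR adjusted p = 0.0275). Rpl35 had the smallest adjusted p (0.0226, edgeR). It was at 229, 253 and 256 CPM in WT HFD and at 341, 406 and 457 in HoipA-KO HFD. Rps6, the substrate of S6 kinase, was at 403, 416 and 410.3 CPM in WT HFD and at 545, 625 and 689 in HoipA-KO HFD, again without overlap (0.60 ± 0.17, edgeR adjusted p = 0.0471). Rpl13a (0.78), Rps18 (0.70), Rplp1 (0.64) and Rps14 (0.80), a platform protein of the small subunit, also rose.

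Several abundant or well-known members shared the direction without passing the test. Rplp0, a stalk protein often used as a reference gene, was at 607, 667 and 684 CPM in WT HFD and at 882, 945 and 1017 in HoipA-KO HFD (log2 fold change 0.54, edgeR adjusted p = 0.0966). Rpl5 and Rpl11, which bind 5S ribosomal RNA and can restrain Mdm2, had estimates of 0.66 and 0.41 (edgeR adjusted p = 0.101 and 0.099). Rpsa (0.52), Rpl10 (0.70), Rpl4 (0.44) and Rps3a1 (0.60) were likewise above in every HoipA-KO HFD library and did not pass. The smallest estimates belonged to paralogs and to Rpl23a (0.39). Rps27l, a p53 target related to Rps27, was at 68.8, 71.4 and 68.5 CPM in WT HFD and at 70.7, 75.5 and 79.7 in HoipA-KO HFD (0.11 ± 0.12 SE), and Rpl7l1 had an estimate of 0.20.

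Markers of other cell types moved with this comparison. All 10 adipocyte markers fell (median log2 fold change -2.04), with sums of 21531 to 29128 CPM in WT HFD and 5545 to 7915 in HoipA-KO HFD. Of 9 macrophage markers 2 rose (median 1.03), with sums of 1637 to 4897 and 5834 to 10146 CPM, and of 10 proliferation markers 3 rose. Of 8 endothelial and 7 skeletal muscle markers 3 and 1 fell. With all 12 libraries 7 of 10 adipocyte markers fell and no marker of the other lists passed (macrophage median 1.01). None of 10 lymphocyte, 8 progenitor, 9 epididymal or 10 testis germ cell markers passed. No listed adipocyte, macrophage, proliferation or endothelial marker was at 0 throughout a group, and the part of these cells in the ribosomal protein difference was not tested.

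**Figure D2:**
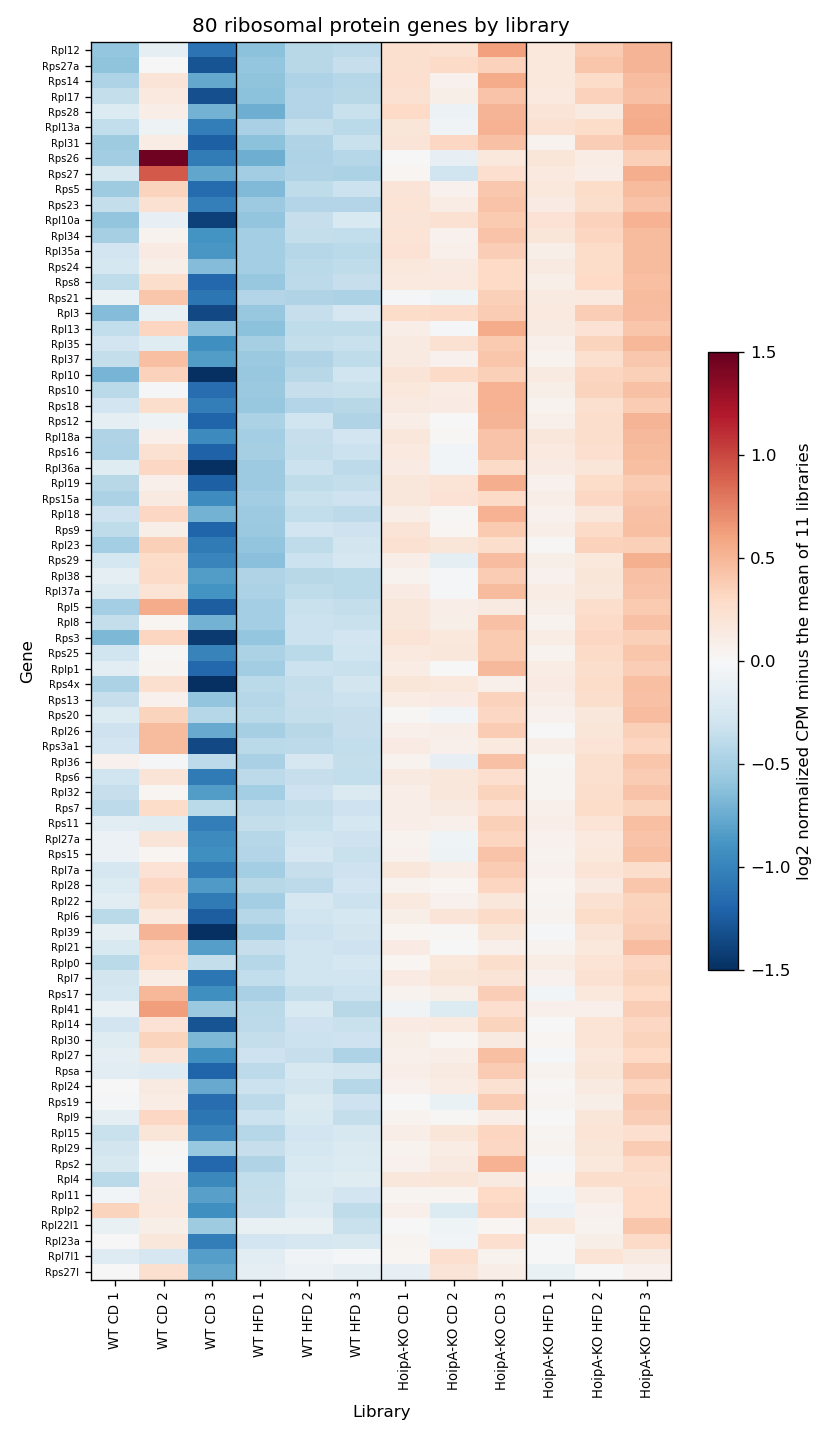
Log2 normalized CPM of 80 ribosomal protein genes (rows, ordered by the HFD genotype estimate; Rpl39l is left out because it was near 0 in 11 libraries) in the 12 libraries (columns), minus the mean of each gene over 11 libraries. The color scale ends at 1.5 on either side; WT CD replicate 3 is lowest for most genes, and Rps26 and Rps27 stand out in WT CD replicate 2.

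On CD, only 4 members passed between genotypes, and they were higher in HoipA-KO. These were Rpl12 (log2 fold change 0.72 ± 0.21 SE, edgeR adjusted p = 0.0249), Rpl3 (0.67), Rpl10a (0.61) and Rpl35 (0.49), all of the large subunit, against 18.9% of all genes tested that rose and 18.8% that fell. The share of members that passed (4.94%) was thus below that of all genes. The same 4 passed with 12 libraries, where 15.6% of genes rose and 19.1% fell, and all 4 were among the 34 that passed on HFD. The median over members was 0.23 (all genes -0.055), 70 of 81 estimates were above 0, and in 24 members no library overlapped, against 28.3% of all genes. The median was 0.46 with all 12 libraries, -0.0052 without WT CD replicate 1, and 0.76 when WT CD replicate 3 took the place of replicate 2, an alternative chosen after seeing the data. DESeq2's Wald test called 7 members higher and 21.2% of all genes. With protein-coding genes alone no member passed, and leaving out 1 library gave 0 (without WT CD replicate 1, for example) to 20 members (without WT CD replicate 2).

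Rpl12 was at 320.1 and 436 CPM in WT CD replicates 1 and 2 (222 in replicate 3) and at 569, 564 and 737 in HoipA-KO CD. Rpl3, which lines the peptidyl transferase center, was at 392 and 570.3 CPM (240.4) and at 741, 751 and 797. Rpl10a was at 235 and 328 CPM (135) and at 407, 416 and 466. In all 3 genes every HoipA-KO CD library was above every WT CD library, with replicate 3 included. In 57 of 81 members, in contrast, WT CD replicate 2 was at or above the lowest HoipA-KO CD library. Rpl5 was at 409 CPM in WT CD replicate 1 and 856 in replicate 2, and at 655, 623 and 641 in HoipA-KO CD.

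The lowest estimates on CD belonged to Rps26 (-0.77), Rps27 (-0.44) and Rpl41 (-0.30), none of which passed, and WT CD replicate 2 was the highest WT CD library for each. Rps26, a small subunit protein at the mRNA exit, was at 173 CPM in WT CD replicate 1, 684 in replicate 2 and 119.9 in replicate 3, and at 248, 229 and 279 in HoipA-KO CD. Relative to the other members of its library it was 1.22 above its mean (log2) in WT CD replicate 2. When replicate 3 took the place of replicate 2 in WT CD the Rps26 estimate turned to 0.76 (edgeR adjusted p = 0.0233). Rps27 was at 226 and 506 CPM (156) against 274, 218 and 320.2. In replicate 2 the epididymal markers were also high, as given above, and their part was not tested. On CD 9 of 10 adipocyte markers fell, and 8 of 9 macrophage markers and 10 of 10 proliferation markers rose, while all 10 testis germ cell markers fell from WT CD sums of 19.8 and 485 CPM (11982 in replicate 3). Of the other marker lists, 4 of 8 progenitor markers rose, 3 of 8 endothelial and 1 of 9 epididymal markers fell, 2 of 7 muscle markers rose and 1 fell, and 0 of 10 lymphocyte markers passed. With all 12 libraries 8 adipocyte, 5 proliferation (median 1.73, against 3.41 with 11) and 1 endothelial marker passed in the same direction, 2 of 7 epididymal markers fell, and of the muscle markers 1 rose and 2 fell.

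**Figure D3:**
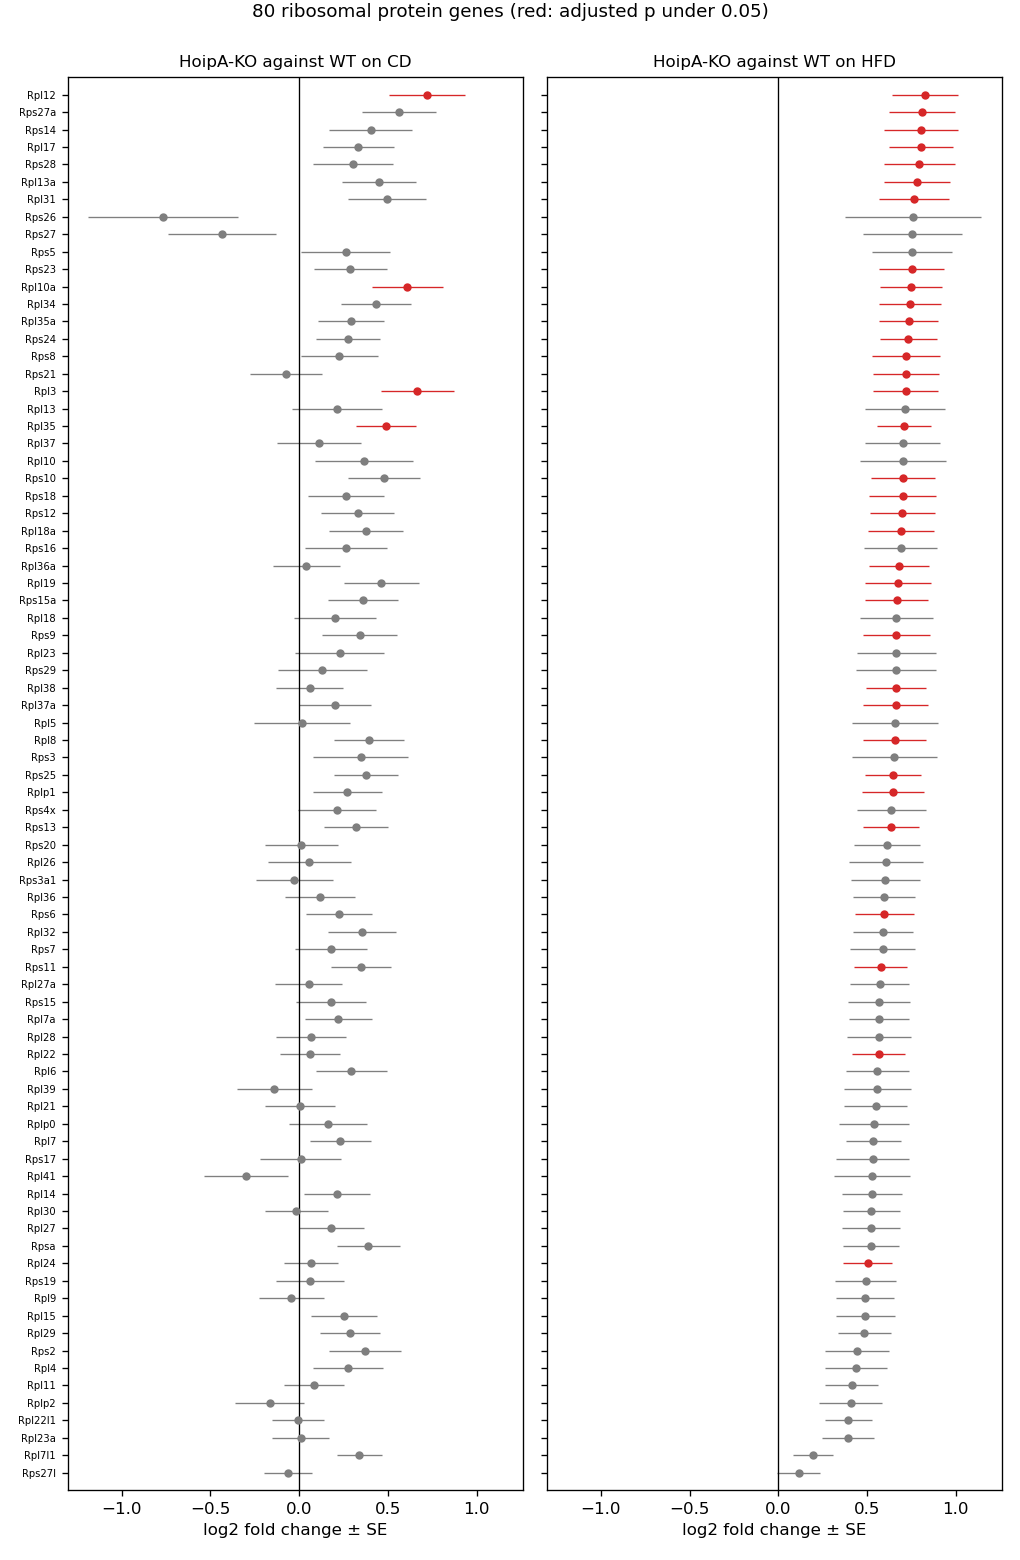
Log2 fold change (HoipA-KO against WT) ± SE of 80 ribosomal protein genes on CD (left) and HFD (right) from the edgeR fit of 11 libraries; Rpl39l is left out. Red points passed an adjusted p of 0.05: 4 on CD and 34 on HFD, with every HFD estimate above 0 and Rps26 lowest on CD (-0.77).

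Between diets no member passed in either genotype by edgeR. In WT, 80 of 81 estimates were lower on HFD (median -0.34, all genes 0.0036), 17 were lower at unadjusted p under 0.05, where 15.2% of all genes were, and the smallest adjusted p was 0.0616 (Rps21), while 9.35% of all genes rose and 5.47% fell. DESeq2's Wald test called 19 members and 11.8% of all genes lower. In 45 members every WT HFD library was below both WT CD libraries, against 18% of all genes. This direction depended on the libraries: with replicate 3 taking the place of replicate 2 in WT CD the median was 0.19, and with all 12 libraries it was -0.11. Rps21, a small subunit protein, was at 213 and 306 CPM in WT CD (108 in replicate 3) and at 169, 167 and 164 in WT HFD. The WT HFD libraries were below both kept WT CD libraries and above the one left out. Leaving out WT CD replicate 1 gave 35 members lower. In HoipA-KO the diets differed least. The median was 0.058, no gene of all tested passed (0% of 18427), no member had an unadjusted p under 0.05, and DESeq2 called no member.

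The difference between the genotype effects on both diets was estimated as an interaction. Its median over members was 0.40 (all genes -0.011) with 80 of 81 estimates above 0, but no member passed by edgeR, where 3.91% of all genes did and 0.331% did with an estimate above 0. At unadjusted p under 0.05, 9 of 81 members were above 0, close to the 10.3% of all genes that were, and DESeq2 called 3 members and 5.29% of all genes above 0. The larger count of members that passed on HFD is therefore not shown to differ from that on CD. Rps26 had the largest interaction estimate (1.52, edgeR adjusted p = 0.154). Without WT CD replicate 1 the count was 14, and with all 12 libraries it was 0 with a median of 0.18.

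Members differed little from each other within a library outside the WT CD group. After removing each gene's mean and each library's median, the SD over 80 members was 0.183, 0.245 and 0.290 (log2) in the WT CD libraries and 0.066 to 0.133 in the other 9. Rplp2, a stalk protein, was 0.62 above in WT CD replicate 1, and Rpl10 was 0.41 below. Transcript length moved with part of this. Spearman's rho between length and deviation over 80 members, given as a description since the members share their library, was -0.41 in WT CD replicate 1, 0.44 in HoipA-KO CD replicate 2 and between -0.23 and 0.31 in the other libraries. On CD, 18 members with transcripts under 500 bases had a median genotype estimate of 0.089 and 62 longer ones 0.24, whereas on HFD the medians were 0.67 and 0.62. The part of length in these values was not tested.

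Paralogs were compared with their parent genes as the log2 ratio of counts within a library, which does not depend on library scaling. Reads shared between close copies are divided by the counting method, so each ratio is uncertain to that extent. An exact permutation test with labels permuted within diet or genotype was used for 8 pairs and 2 contrasts, and the smallest p that 200 arrangements allow is 0.005. Rps4l, a relative of the X-linked small subunit gene Rps4x, is in the table of all genes and not in the protein-coding table, so it is not a member. Its ratio to Rps4x was lower in HoipA-KO than in WT by a mean of -1.51 (exact permutation p = 0.005, adjusted over 16 tests p = 0.04), with no overlap between genotypes within either diet. The adjusted value depends on Rpl10l/Rpl10, described below, having reached the same smallest p. That pair rests on added counts, so the pass of Rps4l/Rps4x after adjustment is not secure. The ratio was -3.42 and -4.15 in WT CD (-1.69 in replicate 3) and -5.55, -5.80 and -4.92 in HoipA-KO CD. On HFD it was -4.05, -3.97 and -4.47 in WT and -5.05, -5.99 and -5.57 in HoipA-KO. Rps4l was at 44.1 and 43.4 CPM in WT CD and at 15.8, 13.1 and 22.7 in HoipA-KO CD (log2 fold change -1.35, edgeR adjusted p = 0.00422), and its estimate on HFD was -0.72 (edgeR adjusted p = 0.0808). Rps4x had estimates of 0.21 and 0.64, neither of which passed. Without any 1 library the adjusted p of the ratio was 0.0533 to 0.133, with fewer arrangements to permute.

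Of the other pairs with ample counts none passed over both diets. On HFD, 3 of them had no overlap between genotypes. Of all single genes tested, 20.7% were higher and 22.7% lower in HoipA-KO on HFD without overlap, and no such share was worked out for ratios. Over both diets the differences were -0.18 for Rpl36al/Rpl36a (exact permutation p = 0.02, adjusted p = 0.08), -0.13 for Rpl22l1/Rpl22, -0.12 for Rpl7l1/Rpl7 and -0.18 for Rps27l/Rps27. For Rps27l/Rps27 this averages opposite signs. The ratio was -1.45, -1.46 and -1.5 in WT HFD and -2.07, -1.93 and -2.30 in HoipA-KO HFD, a difference of -0.63, whereas on CD it was -1.57 and -2.49 in WT and -1.97, -1.32 and -1.97 in HoipA-KO, a difference of 0.27 with overlap. Rpl7l1/Rpl7 differed by -0.33 on HFD without overlap and by 0.09 on CD with overlap, and Rpl36al/Rpl36a by -0.21 on HFD without overlap and by -0.14 on CD with overlap. Rpl22l1/Rpl22 overlapped on both diets. Within 1 diet the smallest p an exact permutation test allows is 0.1, so these values have no test of their own. In the contrast of diets no pair passed. The smallest adjusted p there was 0.08, for Rpl39l/Rpl39 (-1.14, exact permutation p = 0.02), which rests on 5 to 84 Rpl39l counts per library. In the contrast of genotypes Rpl39l/Rpl39 (-0.025) and Rpl3l/Rpl3 (-2.19) did not pass. Rpl10l, a testis paralog of Rpl10, had 1 and 13 counts in the 2 WT CD libraries and 0 in the other 9, so its ratio test (exact permutation p = 0.005, adjusted p = 0.04) rests on the 0.5 counts added and on Rpl10. In WT CD replicate 3 it had 5110 counts. Rpl39l passed the membership minimum through that library alone: it was at 105 CPM there and between 0.163 and 1.54 CPM in the other 11. Rpl3l, a muscle paralog of Rpl3, was at 29.8 CPM in WT CD replicate 2 and at 0.302 or less in every other library. Skeletal muscle markers summed to 13.2 CPM in WT CD replicate 2, within a range of 7.07 to 150 CPM over the 12 libraries. The source of the Rpl3l counts was not tested.

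**Figure D4:**
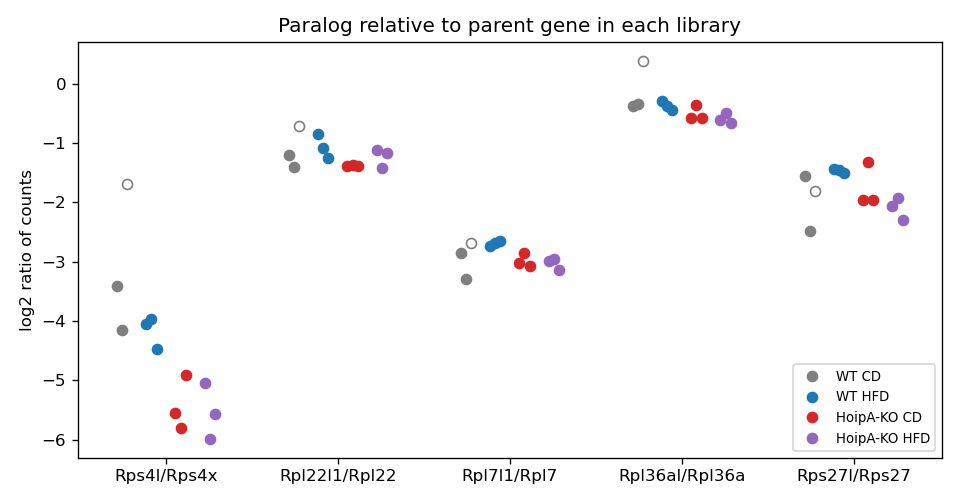
Log2 ratio of the counts of a paralog to those of its parent gene in each library for 5 pairs. Points are libraries colored by group and the open point is WT CD replicate 3; for Rps4l/Rps4x the HoipA-KO libraries (-5.99 to -4.92) lie below the WT libraries (-4.47 to -3.42, and -1.69 in replicate 3).

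Ribosome subunit genes whose symbols fall outside the rule were read from the same fit. Rack1, a scaffold on the small subunit, rose on CD (log2 fold change 0.67, edgeR adjusted p = 0.0452) and had an estimate of 0.68 on HFD (edgeR adjusted p = 0.056). Fau, the fusion gene of Rps30, rose on HFD (0.86, edgeR adjusted p = 0.0428; 0.84 and 0.133 with all 12 libraries, where it did not pass) and had 0.28 on CD. Rpl36al, the paralog of Rpl36a, did not pass on either diet, with -0.11 on CD and 0.46 on HFD.

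Genes that accompany ribosomal proteins were counted by list. Of 18 translation factors and other genes listed with TOP mRNAs, 2 rose on each diet, where 18.9% of all genes rose on CD and 4.2% on HFD. These were Npm1 (0.75) and Eif3k (0.53) on CD and Tpt1 (0.83) and Eif3k (0.51) on HFD. The list medians were 0.26 and 0.36. Of 44 ribosome biogenesis genes 11 rose on CD and 3 on HFD and none fell (25% and 6.82%, against 18.9% and 4.2% of all genes), with medians of 0.31 and 0.17. With all 12 libraries 8 rose on CD, with a median of 0.15. Eif6, which keeps the subunits apart until the large one is mature, was at 40.0 and 39.3 CPM in WT CD and at 62.4, 61.9 and 63.7 in HoipA-KO CD (0.66 ± 0.13 SE, edgeR adjusted p = 0.00358) and rose on HFD too (0.50, edgeR adjusted p = 0.0245). Fbl, the rRNA methyltransferase fibrillarin, rose by 0.93 on CD and 0.70 on HFD. Of 10 dedicated chaperones of ribosomal proteins 2 rose and 1 fell on CD, where 18.9% of all genes rose and 18.8% fell. None passed on HFD. Tsr2, the chaperone of Rps26, was at 30.0 and 30.6 CPM in WT CD and at 19.7, 19.0 and 19.8 in HoipA-KO CD (-0.64, edgeR adjusted p = 0.00484), but with all 12 libraries it did not pass (13.5 CPM in replicate 3, edgeR adjusted p = 0.3). Of 19 genes listed together for TOP mRNA control, a wide list that also holds Myc, 1 rose and 4 fell on each diet. Of all genes tested, 18.9% rose and 18.8% fell on CD, and 4.2% rose and 7.62% fell on HFD. With all 12 libraries 1 of the 19 rose and 2 fell on CD, where 15.6% of all genes rose and 19.1% fell. Myc rose by 1.73 on CD and 0.87 on HFD, Eif4ebp1, an inhibitor of cap-dependent translation, fell by 1.53 and 1.24, Mtor fell by 0.62 and 0.60, and Deptor, an inhibitor of mTOR, fell by 1.40 on HFD. With all 12 libraries none of these 4 passed on HFD, nor did any other gene of these translation lists. Adipocyte markers fell on both diets, as given above, and the part of cell composition was not tested.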

How the data were processed

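GWAT RNA-seq libraries (12, in 4 groups of 3) were analysed from estimated counts that the authors deposited. The authors trimmed reads with Trim Galore 0.6.7, aligned them with STAR 2.7.10a and estimated counts per gene with Salmon 1.5.2, without normalization, per the labels. The submitters' processing notes name GRCm38 and the paper's methods a human build, while all identifiers are of mouse genes. The deposited tables of the authors' DESeq2 1.38.1 comparisons hold fold changes and p-values and were not used. Here, estimated counts of 55281 genes were rounded, filtered with filterByExpr and scaled by TMM, and the 4 groups were fitted in 1 model of 11 libraries with edgeR 4.0.16 (R 4.3.3, prior count 0.125, Benjamini-Hochberg threshold 0.05). Libraries held 30513500 to 60540260 counts, and no column was left unmatched. Normalized CPM is on the TMM scale. Alternatives included all 12 libraries, DESeq2 1.42.0, other scalings, no filter, protein-coding genes alone, a replicate block and leaving out each library. The methods name no pairing by replicate number, so the main fit had no replicate block. Of 15 same-number pairs, 6 had a correlation of deviations over 0.1 (range -0.41 to 0.48). Pairs with different numbers were not compared, so these values cannot decide whether the numbers pair the samples. That the labels name separate pools is all that is known of the replicates, so p-values measure the spread between pools. The fit was tested on simulated data with known changes, in which all libraries shared a common mean profile. The simulation held no differences like those between the WT CD libraries, so it does not cover them. The members and lists were chosen with earlier results of these data known. Named genes are the 3 highest and 3 lowest members of each comparison, the 5 with most counts, those nearest the CPM minimum, the paralog pairs, a set of well-known members and, for lists related to translation, the 2 genes with the smallest p; cell type marker lists are given as counts and sums. Rpl35, Rps12 and Rps21 were added after their values were seen. The transcript used for lengths was chosen after the annotated lengths were seen. A result on a related gene is not reported here.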

Additional observations from a re-analysis of the deposited data

Results flagged for a closer look

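In WT CD replicate 3, which the comparisons left out, Rpl10l was at 93.9 normalized CPM and Rpl39l at 105 normalized CPM, both over 8 times above every other library. The summed testis germ cell markers were also highest in this library (11982 CPM), and their part in these values was not tested.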

How the results depend on the processing

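The count of 34 members higher in HoipA-KO on HFD was 0 with all 12 libraries, 5 with no filter on low counts, 69 with only the 2 groups, 76 with DESeq2's Wald test and 71 without the WT CD group (added after seeing the data), and ran from 0 to 72 when leaving out each library; the median stayed between 0.55 and 0.73. It was 0 without any one of WT HFD 1, WT HFD 2, HoipA-KO HFD 2 and HoipA-KO HFD 3, 5 without HoipA-KO CD replicate 1, 10 without WT HFD replicate 3, 21 without HoipA-KO CD 3 or HoipA-KO HFD 1, 67 without WT CD replicate 1 and 72 without WT CD replicate 2. The 4 higher on CD became 2 with DESeq2 size factors or library size alone, 0 with no filter, protein-coding genes only or only the 2 groups, 7 with DESeq2's Wald test, 48 with WT CD replicate 3 taking the place of replicate 2 (added), and 0 to 20 when leaving out each library (20 without WT CD 2; 1 without WT HFD 2, HoipA-KO CD 1 or HoipA-KO CD 2; 0 without WT CD 1, WT HFD 3, HoipA-KO CD 3, HoipA-KO HFD 1 or HoipA-KO HFD 3). Members lower on CD went from 0 to 1 with 12 libraries and with WT CD replicates 1 and 3, and from 0 to 2 when leaving out 1 library (2 without WT CD 1). With 12 libraries and with WT CD replicates 1 and 3, Rpl39l reversed, to -5.47 and -6.02, and Rps26 reversed to 0.76 with WT CD replicates 1 and 3. Rpl39l was the 1 member called lower on CD in both settings, and the 1 called lower on HFD in WT with 12 libraries. It passed the membership minimum through WT CD replicate 3 alone, so its calls against a group holding that library were set by the choice of members. Members lower on HFD in WT went from 0 to 1 with 12 libraries and with WT CD replicates 1 and 3, 3 with protein-coding genes only, 19 with DESeq2's Wald test and 0 to 35 when leaving out each library (35 without WT CD 1, 2 without HoipA-KO CD 3). The interaction count went from 0 to 3 with DESeq2's Wald test and 0 to 14 when leaving out each library. Pairs that passed between genotypes went from 2 to 0 when leaving out any library, where fewer arrangements raise the smallest possible p. With the replicate block 3 members were higher on CD and 45 on HFD, and the other counts stayed at 0. Scaling by library size alone moved the median of all genes by 0.105 in HFD against CD in HoipA-KO. The causes were not tested. With 2 or 3 pools per group, differences between WT CD libraries limit every count that uses them.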
